A study of Homo sapiens with 6 samples.

Results

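The genes described here lie on human chromosome 14 (hg19) in a segment of the long arm whose listed start falls between 55 and 65 Mb, and which holds HIF1A and LGALS3. The interval has 81 rows with a symbol that occurs once in the files. Of these, 2 are not reported here, which leaves 79 members among 26885 rows with a unique symbol. The segment was selected on measured values, the differences of its genes between GDC-R and control cells, so those differences are given as a description, without a test. A mean of at least 1 FPKM over all libraries (fragments scaled by transcript length and library total, a level per length) was reached by 46 members, among 13070 genes in all. The other 33 members were too low to be fitted.

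HIF1A encodes the oxygen-labile subunit of hypoxia-inducible factor, HIF-1. In normal oxygen it is hydroxylated by prolyl hydroxylases, bound by the von Hippel-Lindau protein and degraded, and in low oxygen it pairs with ARNT and switches on genes of glycolysis, angiogenesis and pH control. AKT and mTOR signalling is known to promote HIF1A synthesis in tumour cells. LGALS3 encodes galectin-3, a lectin that binds beta-galactosides on glycoproteins and is studied as an adhesion and survival protein in prostate cancer.

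The study compared RNA of 2 groups of PC-3 cells, a human prostate cancer line that grows without androgen. The GDC-R group (PC-3-GDC-R, 3 libraries) was kept under constant GDC-0068, the AKT kinase inhibitor ipatasertib. The control group (PC-3-control, 3 libraries) received the vehicle DMSO over the same period. Its title concerns how histone deacetylases on chromatin relate to resistance to PI3K/AKT inhibitors. Both groups were at passages 20 to 30 and grew in RPMI medium with fetal bovine serum. The labels do not say whether the resistant cells are 1 clone or a pool, nor whether the 3 libraries of a group come from separate cultures, so p-values measure the spread between these libraries, which may be technical.

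The libraries held 35562400 to 44279078 gene-assigned fragments in GDC-R and 37252408 to 41027296 in control. Epithelial markers were present in every library, with KRT8 at 197 to 243 FPKM and EPCAM at 132 to 177 FPKM. CDH1, at 32.9 to 66.2 FPKM, differed between the groups. It had 5406, 7098 and 6476 fragments in GDC-R, against 11975, 12438 and 11375 in control. KLK3, a gene of androgen-responsive prostate cells, was at 0 throughout. Of 8 markers of leukocytes, endothelium and fibroblasts, CD3E had 1 fragment in GDC-R library 1 and 0 in the other libraries, and the highest value was 2.94 FPKM, for COL1A1. Their summed level was 1.75 to 2.12 FPKM in GDC-R and 3.12 to 4.07 FPKM in control. Control library 1 stood apart from the other controls along GC content: its deviation from the control mean had a Spearman correlation of -0.75 with transcript GC over 12702 genes, against 0.592 and 0.638 in the other two. This bears on the segment, because its tested transcripts had a median GC of 40.4%, against 48.2% over all tested genes. Control library 1 was the highest control in 37 of the 46 tested members, against 40.2% of all tested genes. Without it, 8 of the 46 tested members moved in sign or by more than 1.5 times, and their values without it are given below. In bulk RNA, fewer cells with a transcript and less of it per cell cannot be told apart.

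The promoters of the 2 genes that give the segment its name, and of L3HYPDH, are shown because HIF1A differed in the opposite direction from most of the segment while LGALS3 and L3HYPDH moved with them. The sequences are RefSeq windows on GRCh38.p14, a different build from the files, and run from 250 bases before to 50 bases after the gene's start. Capitals mark the hypoxia response element core, ACGTG or GCGTG on either strand, read on the reverse strand as CACGT or CACGC. HIF1A is chr14:61695263-61695562 on the plus strand, LGALS3 is chr14:55129002-55129301 on the plus strand and L3HYPDH is chr14:59484359-59484658 on the minus strand.
HIF1A: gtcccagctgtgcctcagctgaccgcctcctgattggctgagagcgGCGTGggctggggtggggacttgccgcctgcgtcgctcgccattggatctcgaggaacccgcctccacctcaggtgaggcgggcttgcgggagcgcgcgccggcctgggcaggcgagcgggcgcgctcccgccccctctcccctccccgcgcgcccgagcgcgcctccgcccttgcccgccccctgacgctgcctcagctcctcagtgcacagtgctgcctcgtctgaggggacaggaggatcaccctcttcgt
LGALS3: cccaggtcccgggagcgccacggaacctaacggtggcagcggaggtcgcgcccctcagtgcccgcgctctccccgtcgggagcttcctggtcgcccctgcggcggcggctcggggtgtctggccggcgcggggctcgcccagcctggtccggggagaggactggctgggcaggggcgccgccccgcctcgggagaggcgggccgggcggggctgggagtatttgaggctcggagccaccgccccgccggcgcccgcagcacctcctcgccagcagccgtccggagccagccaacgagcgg
L3HYPDH: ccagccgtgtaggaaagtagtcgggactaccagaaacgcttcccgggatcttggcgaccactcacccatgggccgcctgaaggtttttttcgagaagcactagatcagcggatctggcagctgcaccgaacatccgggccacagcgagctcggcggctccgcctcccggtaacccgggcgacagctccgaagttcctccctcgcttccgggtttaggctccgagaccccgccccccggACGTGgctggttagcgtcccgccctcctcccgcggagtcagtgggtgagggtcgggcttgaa
The HIF1A window holds GCGTG once, the L3HYPDH window holds ACGTG once, and the LGALS3 window has no match, which says only that these letters are not in it. The window of SAMD4A, searched in the same way but not shown, has no match either. The GC content was 73% for HIF1A, 78.3% for LGALS3 and 65% for L3HYPDH.

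A RefSeq promoter was matched by symbol for 39 of the 46 tested members, and for 62 of all 79 members. The tested members had at least 1 FPKM, whereas the shares over all promoters cover genes at any level, so these sets are unlike. ACGTG was found in 15 of these 39 and in 17 of the 62, against 21.6% of all 27305 promoters of the same length. It was in 11 of 26 promoters of members that were higher in GDC-R and in 3 of 7 that were lower. GCGTG was in 19 of the 39 promoters and in 26 of the 62, against 36.4% of all. By the same split, it was in 12 of 26 higher and 4 of 7 lower members. The promoters of the 39 tested members had a median GC of 63.3%, against 58.3% over all promoters, and both motifs contain CG. The forkhead motif GTAAACA, read by FOXO factors that AKT phosphorylates, was in 0 of the 39 promoters and 1 of the 62, against 3.44% of all. The AP-1 motif TGANTCA was in 0 of the 39 and 1 of the 62, against 7.72% of all. These matches are descriptions of letters in a window and not of bound sites.

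Most expressed members were higher in GDC-R cells than in control cells. At an adjusted p under 0.05 in edgeR's quasi-likelihood test over all genes, 31 of 46 were higher, 8 were lower and 7 did not pass. Over all tested genes 24.5% were higher and 25.7% lower, 50.2% in all. The rule used this contrast, so nothing is read from the difference in shares. The median log2 fold change of the 46 members was 0.45, and that of all tested genes was -0.0088. The size was modest for most: 3 members were at least 2-fold higher, 12 lay between 1.5-fold and 2-fold, 16 were higher by less than 1.5-fold, and 1 was at least 2-fold lower. The FPKM of the 3 GDC-R and 3 control libraries did not overlap in 32 members that were higher and 8 that were lower, while all tested genes gave 31.9% and 28.5%, 60.5% in all. Without control library 1, 35 members were higher and 9 lower, with a median of 0.54. Calls rose over all tested genes too, from 50.2% to 64.8%, with 4165 higher and 4298 lower.

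Taken as a sum, the 46 members held 0.642%, 0.633% and 0.65% of all gene fragments in the GDC-R libraries, and 0.526%, 0.46% and 0.449% in the control libraries. The 3 GDC-R shares were close together and above every control share, and control library 1 was the highest control. The members' median coefficient of variation was 2.93% in GDC-R and 8.66% in control, against 3.47% and 7.59% over all tested genes.

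**Figure D1:**
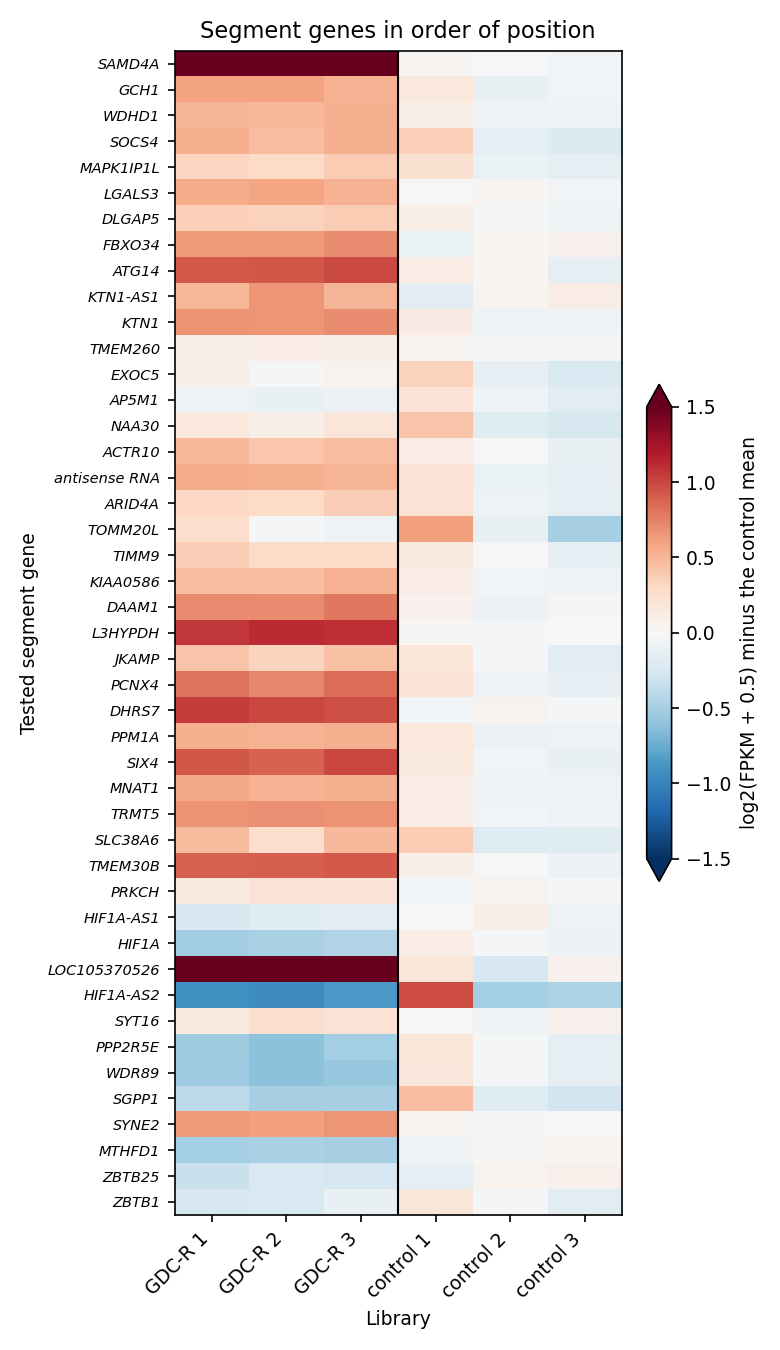
Each row is a tested member reported here, in order of position and each column a library, GDC-R left of control; colour gives log2(FPKM + 0.5) minus the control mean. Red rows (higher in GDC-R) fill the top of the map, HIF1A, HIF1A-AS1 and HIF1A-AS2 are blue in GDC-R, and SAMD4A and LOC105370526 lie beyond the end of the colour scale.

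Read along the chromosome, the members fell into runs. The limits of these runs were set after the values were seen, so they carry no test. From SAMD4A to PRKCH, 28 of 34 tested genes were higher in GDC-R, 0 were lower, and the median log2 fold change was 0.52. From HIF1A-AS1 to SYT16, 2 of 5 were higher and 3 lower. From PPP2R5E to ZBTB1, 1 of 7 was higher, 5 were lower, and the median was -0.52. The start of HIF1A lies 144 kb past the end of PRKCH, with the start of HIF1A-AS1 and untested members between them. Between SYT16 and PPP2R5E lie 1.27 Mb with untested members only.

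The first run was broken in 1 place. All 11 tested genes from SAMD4A to KTN1 were higher, with a median of 0.58. After 0.895 Mb with untested members only, none of the 4 tested genes from TMEM260 to NAA30 passed, with a median of 0.04. From ACTR10 to PRKCH, 17 of 19 were higher, with a median of 0.52. The quiet stretch depended on control library 1: without it 3 of these 4 genes were higher, with a median of 0.16. After a correction for GC content, 2 of 4 were higher. Over all tested genes these fits called 64.8% and 63.5%, against 50.2% with every library and no correction.

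**Figure D2:**
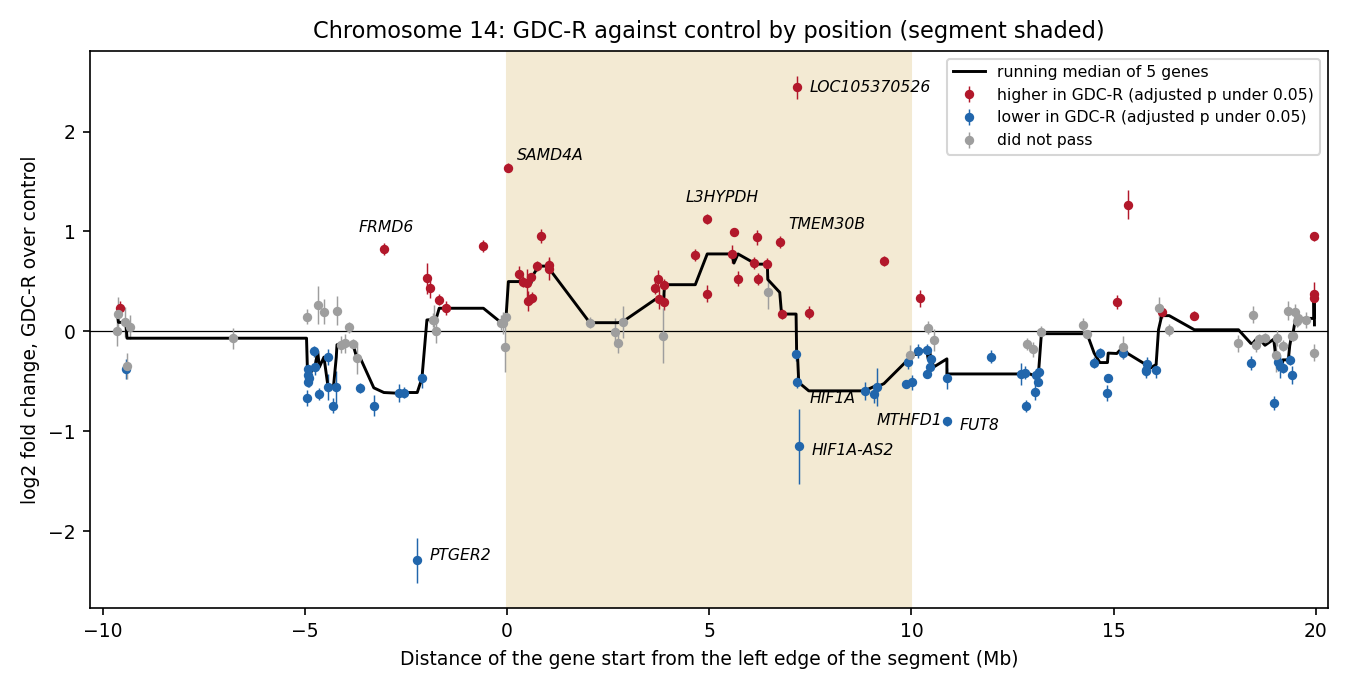
The x axis is the distance of each gene's start from the left edge of the segment (Mb) and the y axis the log2 fold change, GDC-R over control, with SE bars; the line is a running median of 5 neighbouring tested genes and the shaded band is the segment. The line sits above 0 from SAMD4A to PRKCH, apart from a dip toward 0, and drops below 0 at HIF1A.

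The segment's edges were read from the tested genes nearest to them. Just inside the left edge, SAMD4A had a log2 fold change of 1.64, GCH1 of 0.58 and WDHD1 of 0.50. Just outside it, CGRRF1 had 0.14, GMFB -0.15 and CNIH1 0.09. CGRRF1 ends 29 kb before SAMD4A starts, and SAMD4A stood above all 3 genes outside. The signs outside rest partly on control library 1: without it GMFB had 0.29, CNIH1 0.25 and CGRRF1 0.20, and all 3 passed as higher. Calls were more frequent over all tested genes in that fit, at 64.8% against 50.2%. Just inside the right edge, MTHFD1 had -0.52, ZBTB25 -0.31 and ZBTB1 -0.23, and just outside it HSPA2 had -0.51, PLEKHG3 -0.20 and SPTB 0.33. Both sides of the right edge held mainly negative values, and ZBTB1 had -0.12 without control library 1.

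The flanks, which the rule left out, held genes of both directions. In the 10 Mb to the left, 7 of 48 tested genes were higher, 19 were lower, and the median log2 fold change was -0.12. In the 10 Mb to the right, 8 of 66 were higher, 32 were lower, and the median was -0.19. These stand beside 24.5% higher and 25.7% lower over all genes. Without control library 1, the left flank had 17 higher and 21 lower genes and the right flank 13 and 34. The same fit gave 4165 higher and 4298 lower among all 13070 genes, 64.8% in all, against 50.2% with every library.

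The left flank was not uniform, again by limits set after the values were seen. From LRR1 to TXNDC16, 1 of 27 tested genes was higher, FRMD6, and 18 were lower, with a median of -0.43. In the stretch that touches the segment, from GPR137C to CGRRF1, 5 of 12 were higher and 0 lower, with a median of 0.13. All 12 were higher without control library 1, with a median of 0.30, in a fit that called 64.8% of all tested genes. ERO1A, an oxidase of disulphide formation in the endoplasmic reticulum, lies in that stretch and had 85.0, 81.7 and 84.8 FPKM in GDC-R, against 71.9, 56.9 and 54.1 FPKM in control (edgeR adjusted p = 0.0063). To the right of the segment, from HSPA2 to RDH11, 1 of 21 tested genes was higher, SPTB, and 16 were lower, with a median of -0.40. The rest of chromosome 14 had 96 higher and 112 lower among 379 tested genes, with a median of -0.0067. These are 25.3% and 29.6%, beside 24.5% and 25.7% over all tested genes.

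HIF1A, at chr14:62162119-62214977 on the plus strand, was lower in GDC-R. It had 73.0, 74.6 and 76.9 FPKM in GDC-R, against 113.7, 102.7 and 98.8 FPKM in control. Every GDC-R library lay below every control library, and the log2 fold change was -0.51 ± 0.06 (SE). Along the chromosome, it is the first protein-coding member that passed as lower.

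Transcripts around HIF1A went different ways, and they overlap it. The strand setting of the counting is not given in the sources used here, so reads of HIF1A and of genes on the opposite strand may not be separated. LOC105370526, an uncharacterised minus-strand locus, shares 32702 bases with the HIF1A span and had 42.1, 41.1 and 44.2 FPKM in GDC-R, against 8.74, 6.39 and 7.996 FPKM in control. That is the largest difference among the 46 members, with a log2 fold change of 2.44 ± 0.11 (SE), opposite in sign to HIF1A. HIF1A-AS2 lies inside LOC105370526 and shares 1221 bases with the 3′ end of HIF1A. It had 9.54, 9.31 and 9.93 FPKM in GDC-R, against 36.7, 12.8 and 13.2 FPKM in control. Its log2 fold change of -1.15 ± 0.37 (SE) rests on control library 1 and was -0.45 without it. Its call was lost under DESeq2, limma and without any 1 of the GDC-R libraries. Leaving out a GDC-R library cut the share called over all tested genes as well, to 37.6 to 39.1% from 50.2%. HIF1A-AS1, which starts head to head with HIF1A and shares 423 bases with it, had 15.8, 16.5 and 16.7 FPKM in GDC-R, against 18.7, 19.9 and 17.8 FPKM in control. Its groups did not overlap, but the log2 fold change was only -0.22, and its call was lost under 8 of the other settings.

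HIF1A's own network was set beside it with a textbook list of 43 other regulators and targets of HIF, of which 39 were tested. In GDC-R 8 rose and 21 fell, beside 24.5% and 25.7% of all genes, and the median log2 fold change was -0.21. Among the regulators, 3 of 12 rose and 5 fell. CUL2, the scaffold of the ubiquitin ligase that degrades HIF1A, had 74.2, 73.7 and 75.2 FPKM in GDC-R, against 106.5, 97.1 and 92.2 FPKM in control (edgeR quasi-likelihood adjusted p = 0.00043). EPAS1, the related HIF-2 alpha subunit, had 13.4, 14.6 and 14.2 FPKM in GDC-R, against 17.6, 17.7 and 18.5 FPKM in control (edgeR adjusted p = 0.00046). EGLN1, the main prolyl hydroxylase that marks HIF1A, fell by 0.37 on the log2 scale (edgeR adjusted p = 0.0091, lower in 3 of 3 libraries). EP300, a coactivator of HIF, rose by 0.29 (edgeR adjusted p = 0.013, higher in 3 of 3 libraries). The regulators thus changed in both directions, and 4 did not pass.

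Among HIF targets, 5 of 27 rose (18.5%) and 16 fell (59.3%), beside 24.5% and 25.7% of all genes. The median log2 fold change was -0.31. DDIT4, an inhibitor of mTORC1 signalling, had 3.65, 3.40 and 3.60 FPKM in GDC-R, against 7.49, 9.65 and 9.16 FPKM in control (edgeR adjusted p = 2.3e-05). NDRG1, a stress-response gene, had 34.6, 37.2 and 37.9 FPKM in GDC-R, against 64.2, 72.4 and 75.4 FPKM in control (edgeR adjusted p = 8.4e-06). Both were lower in every GDC-R library. STC2, a secreted glycoprotein, went the other way and had 111.8, 109.2 and 107.4 FPKM in GDC-R, against 39.1, 41.1 and 41.5 FPKM in control (edgeR adjusted p = 1.5e-07). Of the 27 targets, most thus fell, while 5 rose and 6 did not pass. ERO1A, in the left flank of the segment, was among the 5.

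**Figure D3:**
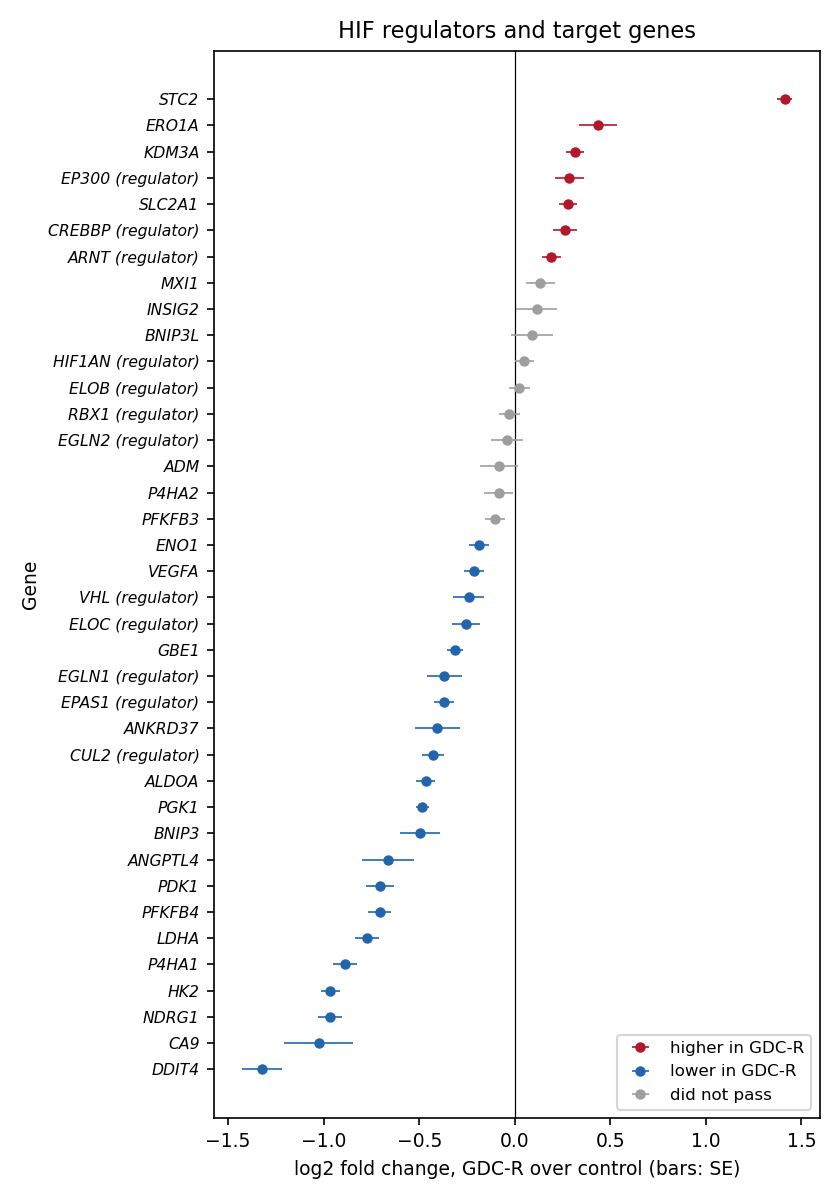
Points give the log2 fold change, GDC-R over control, of the tested HIF regulators and targets reported here, with SE bars, sorted by value and coloured by the outcome of edgeR's test at an adjusted p under 0.05. The lower group holds 21 genes, led by DDIT4, and STC2 leads the higher group.

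The other transcription genes of the segment were mostly higher. Together with HIF1A, 4 of 7 tested genes of this role were higher and 2 lower. This and the role counts below stand beside 31 of 46 higher and 8 lower in the segment. Over all tested genes 24.5% were higher and 25.7% lower. The segment was chosen on this contrast, so nothing is read from a role's count. SIX4, a homeobox factor of muscle and sensory organ development, had 24.0, 23.2 and 25.2 FPKM in GDC-R, against 13.8, 11.9 and 11.4 FPKM in control, a log2 fold change of 0.94. ARID4A, a retinoblastoma-binding protein of the SIN3 histone deacetylase complex, had 7.09, 7.01 and 7.42 FPKM in GDC-R, against 6.61, 5.29 and 5.08 FPKM in control, a log2 fold change of 0.32. MNAT1, the assembly factor of the CDK-activating kinase within TFIIH, had 108.9, 105.8 and 106.5 FPKM in GDC-R, against 79.7, 70.7 and 70.5 FPKM in control, a log2 fold change of 0.52. At the right end, the zinc finger genes ZBTB25 and ZBTB1 had log2 fold changes of -0.31 and -0.23, and ZBTB1 did not pass. ZBTB25 shares 10902 bases with MTHFD1 on the other strand and its call was lost after the GC correction.

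LGALS3, at chr14:55595935-55612148 on the plus strand, was higher in GDC-R. It had 62.2, 63.3 and 60.6 FPKM in GDC-R, against 42.3, 42.9 and 40.8 FPKM in control. The groups were far apart for their spread, at 62.0 ± 1.35 and 42.0 ± 1.06 FPKM (SD, n = 3 each), and the log2 fold change was 0.54 ± 0.05 (SE). Control library 1 lay between the other controls, unlike in most members.

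Few other galectin genes were expressed. Of 15 other listed galectin genes, LGALS3BP included, 4 were tested, of which 2 rose and 1 fell, too few to be read against the 24.5% and 25.7% of all genes. LGALS8, a galectin that detects damaged vesicles, had 19.7, 20.0 and 20.4 FPKM in GDC-R, against 10.6, 9.66 and 9.32 FPKM in control (edgeR adjusted p = 5.1e-06). LGALS3BP, a secreted glycoprotein that galectin-3 binds, had 51.0, 51.5 and 52.4 FPKM in GDC-R, against 41.8, 44.5 and 46.0 FPKM in control (edgeR adjusted p = 0.0065). LGALSL, a galectin-like protein, fell by 0.50 on the log2 scale (edgeR adjusted p = 0.0029, lower in 3 of 3 libraries). LGALS1, the most abundant of the 4, differed by 0.02 on the log2 scale with overlapping groups (edgeR adjusted p = 0.80).

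Of 7 tested members with roles in lectin binding, vesicles, the cytoskeleton or the nuclear envelope, LGALS3 included, 5 were higher, 0 lower and 2 did not pass. SAMD4A was listed with them, though its known role lies in RNA control. SAMD4A, a human relative of the fly translational repressor Smaug, spans chr14:55034330-55260033 and had 39.9, 40.7 and 39.9 FPKM in GDC-R, against 13.1, 12.7 and 12.4 FPKM in control. Its log2 fold change of 1.64 ± 0.04 (SE) was the largest of the protein-coding members. KTN1, kinectin, a membrane protein of the endoplasmic reticulum that binds kinesin, was the most abundant member, with 255.9, 254.7 and 262.5 FPKM in GDC-R, against 174.9, 152.4 and 154.7 FPKM in control. Its log2 fold change was 0.66, close to the 0.63 of KTN1-AS1 on the other strand. DAAM1, a formin that builds actin filaments downstream of WNT signalling, had 9.59, 9.57 and 10.2 FPKM in GDC-R, against 5.99, 5.34 and 5.74 FPKM in control, a log2 fold change of 0.76. ACTR10, a dynactin subunit, had a log2 fold change of 0.44. SYNE2, nesprin-2, which ties the nuclear envelope to the cytoskeleton, had 4.72, 4.65 and 4.80 FPKM in GDC-R, against 2.92, 2.79 and 2.87 FPKM in control, a log2 fold change of 0.70. It was the only gene that was higher from PPP2R5E to ZBTB1. EXOC5, an exocyst subunit, had 24.3, 22.6 and 23.7 FPKM in GDC-R, against 29.2, 21.0 and 19.5 FPKM in control. Its control libraries enclosed the GDC-R values, as did those of its head-to-head neighbour AP5M1, an adaptor subunit of vesicle traffic. Without control library 1, EXOC5 had a log2 fold change of 0.20 and AP5M1 of 0.0055.

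**Figure D4:**
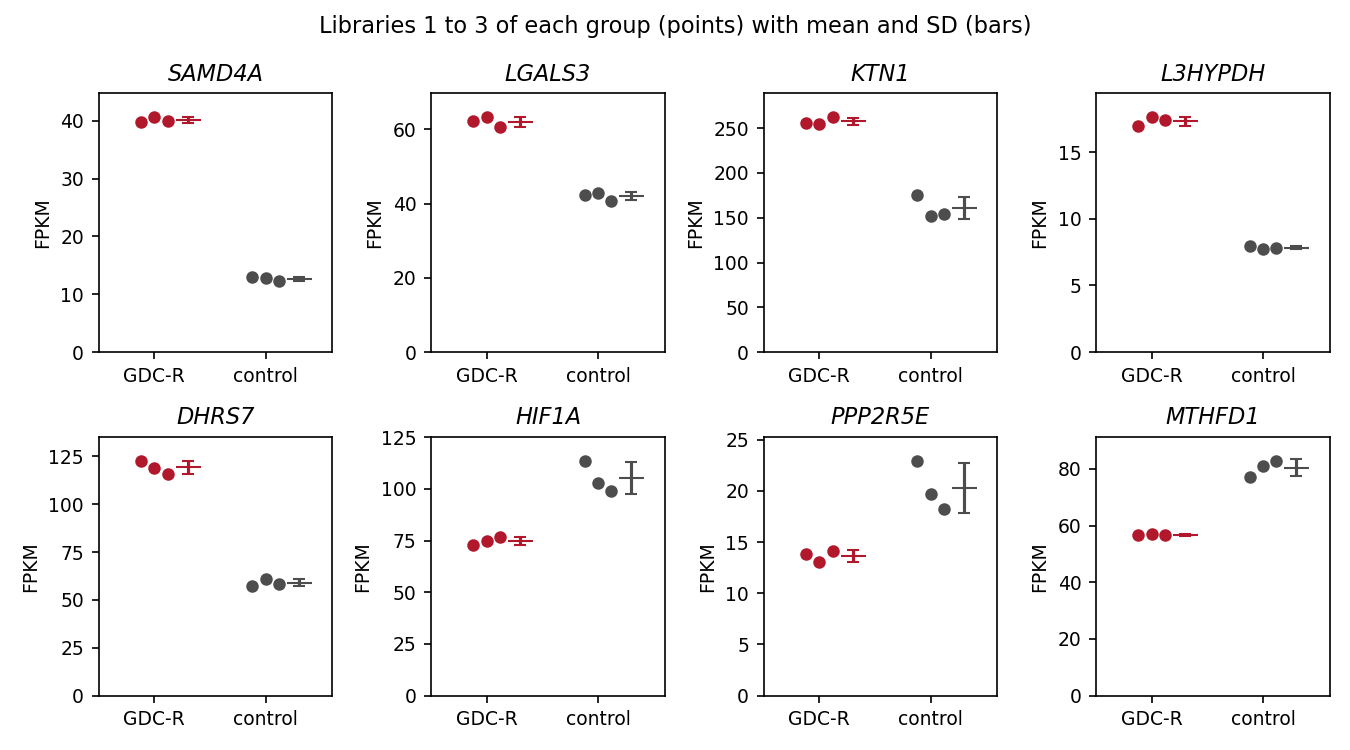
FPKM of 8 members in each library (points), GDC-R left of control, with the group mean and SD as bars (n = 3 each) and each y axis starting at 0. In SAMD4A, LGALS3, KTN1, L3HYPDH and DHRS7 every GDC-R point is above every control point, and in HIF1A, PPP2R5E and MTHFD1 every GDC-R point is below.

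All 3 tested members of the cell cycle and the centrosome were higher in GDC-R, as were 31 of 46 in the whole segment and 24.5% of all genes. WDHD1, a replisome protein, had 57.0, 56.6 and 57.7 FPKM in GDC-R, against 42.8, 38.5 and 38.3 FPKM in control, a log2 fold change of 0.50. DLGAP5, which stabilises spindle microtubules, had 141.4, 140.2 and 144.0 FPKM in GDC-R, against 118.3, 108.8 and 105.1 FPKM in control, a log2 fold change of 0.34. KIAA0586, a centrosomal protein needed for cilia, had a log2 fold change of 0.47. The changes in this group were all below 1.5-fold.

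Of 6 tested members of kinase, phosphatase and cytokine signalling, 5 were higher and 1 lower. GCH1 was listed with them although it is an enzyme of cofactor synthesis. GCH1, the first enzyme of tetrahydrobiopterin synthesis, had 17.1, 17.1 and 16.1 FPKM in GDC-R, against 12.3, 10.2 and 10.7 FPKM in control, a log2 fold change of 0.58. PPM1A, a phosphatase of SMAD proteins, had 17.9, 17.8 and 18.1 FPKM in GDC-R, against 13.7, 11.5 and 11.6 FPKM in control, a log2 fold change of 0.53. SOCS4, a suppressor of cytokine signalling, had 21.2, 20.0 and 20.9 FPKM in GDC-R, against 18.4, 12.9 and 12.3 FPKM in control, a log2 fold change of 0.49. In SOCS4 control library 1 lay nearer to the GDC-R values than to the other controls. JKAMP, a membrane protein that binds JNK1, had a log2 fold change of 0.38, MAPK1IP1L of 0.31 and PRKCH, protein kinase C eta, of 0.17. PPP2R5E, a regulatory subunit of the phosphatase PP2A, was the lower member, with 13.8, 13.0 and 14.1 FPKM in GDC-R, against 23.0, 19.7 and 18.2 FPKM in control, a log2 fold change of -0.59.

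Of 5 tested members of autophagy, protein turnover and mitochondria, 3 were higher and 2 did not pass. ATG14, a subunit of the lipid kinase complex that starts autophagosomes, had 21.0, 21.0 and 22.1 FPKM in GDC-R, against 11.7, 11.0 and 9.81 FPKM in control, a log2 fold change of 0.96 ± 0.07 (SE). FBXO34, an F-box protein, had 41.0, 41.0 and 43.0 FPKM in GDC-R, against 24.4, 26.8 and 27.2 FPKM in control, a log2 fold change of 0.65. TIMM9, a chaperone of mitochondrial import, had a log2 fold change of 0.30. TOMM20L, which overlaps TIMM9 by 208 bases, had 6.52, 5.28 and 5.03 FPKM in GDC-R, against 8.41, 4.91 and 3.63 FPKM in control. Its control spread, 5.65 ± 2.47 FPKM (SD, n = 3), covered the GDC-R libraries, and its log2 fold change was -0.04, or 0.37 without control library 1. NAA30, the catalytic subunit of an N-terminal acetyltransferase, had 22.8, 22.0 and 23.3 FPKM in GDC-R, against 27.6, 17.9 and 17.2 FPKM in control, and its groups also overlapped. Without control library 1 they separated, with a log2 fold change of 0.36.

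Of 6 tested members of metabolism and tRNA modification, 3 were higher, 2 lower and 1 did not pass. L3HYPDH, a dehydratase of trans-3-hydroxyproline, had 16.9, 17.6 and 17.4 FPKM in GDC-R, against 7.96, 7.75 and 7.79 FPKM in control, a log2 fold change of 1.12 ± 0.05 (SE). DHRS7, a short-chain dehydrogenase and reductase, had 122.8, 118.9 and 115.9 FPKM in GDC-R, against 57.4, 61.2 and 58.5 FPKM in control, a log2 fold change of 0.99 ± 0.04 (SE). Both were about 2-fold higher, with little spread in either group. TRMT5, a tRNA methyltransferase, had 23.6, 23.7 and 23.7 FPKM in GDC-R, against 15.8, 14.2 and 13.9 FPKM in control, a log2 fold change of 0.67. MTHFD1, which interconverts folates for purine and thymidylate synthesis, had 56.6, 57.2 and 56.7 FPKM in GDC-R, against 77.2, 81.2 and 83.0 FPKM in control, a log2 fold change of -0.52. SGPP1, a phosphatase of sphingosine 1-phosphate, had 7.99, 7.39 and 7.44 FPKM in GDC-R, against 14.9, 9.35 and 8.64 FPKM in control. Its log2 fold change of -0.55 lost its call under DESeq2 and limma, at a mean of at least 5 FPKM and without any 1 of the GDC-R libraries. It was -0.26 without control library 1. Fewer of all tested genes, 37.6 to 39.1%, were called without a GDC-R library than the 50.2% called with every library. SLC38A6, an amino acid transporter, had 7.27, 6.22 and 7.32 FPKM in GDC-R, against 6.78, 4.38 and 4.44 FPKM in control. Its log2 fold change was 0.39, and the overlap came from control library 1, without which the groups separated and the log2 fold change was 0.64.

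The remaining 10 tested members had no role group, and 6 were higher and 3 lower, among them the transcripts around HIF1A described above. TMEM30B, a partner subunit of phospholipid flippases, had 41.4, 41.7 and 42.2 FPKM in GDC-R, against 23.6, 22.1 and 20.7 FPKM in control, a log2 fold change of 0.90. PCNX4, a membrane protein of the pecanex family, had 60.4, 56.5 and 61.3 FPKM in GDC-R, against 39.3, 32.2 and 31.2 FPKM in control, a log2 fold change of 0.78. SYT16, of the synaptotagmin family, lies past HIF1A and was higher by 0.19. WDR89, a WD-repeat protein, had 10.0, 9.51 and 9.88 FPKM in GDC-R, against 16.8, 14.6 and 13.4 FPKM in control, a log2 fold change of -0.63. TMEM260 had 7.62, 7.76 and 7.69 FPKM in GDC-R, against 7.37, 7.05 and 6.99 FPKM in control. Its groups did not overlap, yet the log2 fold change was 0.09 and it did not pass.

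Neighbours that start head to head could share a promoter, so their values were set side by side. The segment had 10 such pairs with starts within 1000 bases, of which 9 had both genes tested. Both genes were higher in 5 pairs, and both were lower in 1, HIF1A-AS1 with HIF1A. Of the tested members 31 of 46 were higher, against 24.5% of all genes, and the segment was chosen on this contrast. Nothing about shared promoters is therefore read from the 5 pairs. WDHD1 and SOCS4, which start 25 bases apart, had log2 fold changes of 0.50 and 0.49. L3HYPDH and JKAMP start 88 bases apart and both were higher, but by 1.12 and 0.38. Of the tested members, 15 overlap another member, including TIMM9 with KIAA0586, and their values may share reads.

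**Figure D5:**
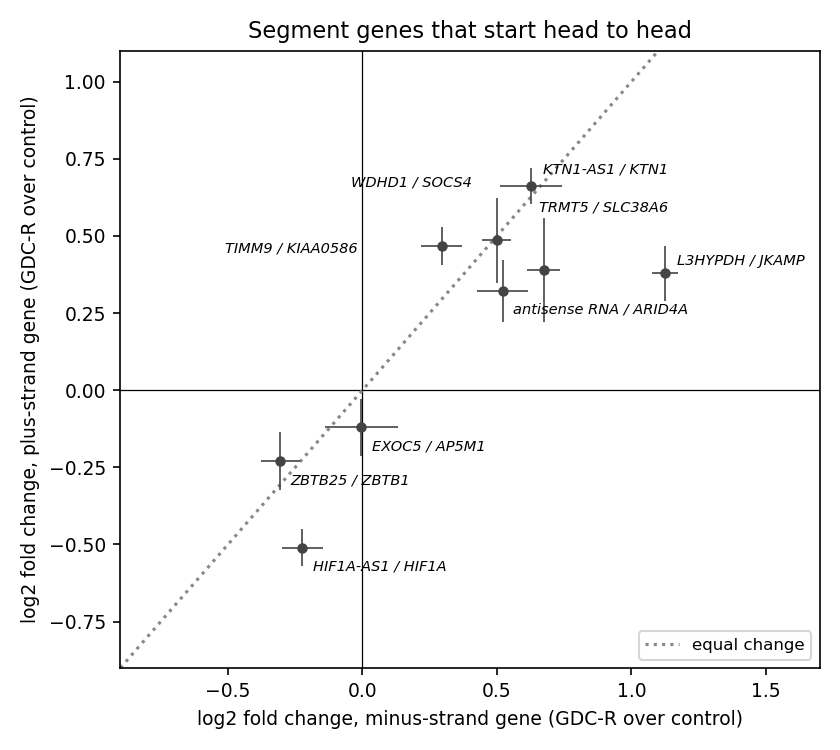
Each point is a pair of segment genes that start head to head, with the log2 fold change (GDC-R over control) of the minus-strand gene on the x axis, that of the plus-strand gene on the y axis, and SE bars; the dotted line marks equal change. Pairs with both genes higher fill the upper right, and L3HYPDH with JKAMP, at 1.12 and 0.38, lies farthest to the right of the line.

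Of the 33 members below the level for testing, 7 had 0 fragments in every library and 7 more had 10 or fewer in all 6 libraries together. The untested members summed to 836, 1013 and 913 fragments in GDC-R and to 1042, 808 and 775 in control. AKAP5, a scaffold of protein kinase A, was the highest of them, with 139, 174 and 152 fragments in GDC-R and 398, 283 and 244 in control. It overlaps ZBTB25 by 9005 bases. C14orf37 had 103, 155 and 123 fragments in GDC-R and 122, 112 and 128 in control. LOC101927780 had 134, 115 and 99 fragments in GDC-R and 96, 84 and 86 in control. DACT1, a regulator of WNT signalling named after its values were seen, had 101, 117 and 90 fragments in GDC-R and 11, 7 and 6 in control. Its groups lay far apart, at a level below 1 FPKM.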

How the data were processed

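RNA of 6 PC-3 libraries, 3 GDC-R and 3 control, had been sequenced. The submitters' processing notes name TopHat2 2.0.6 and hg19. How strand was handled, which tool counted and which gene models it used is not stated in the labels or headers. Each of the authors' files held a fragment count per gene and the FPKM computed from it, per the file headers. The deposited files also give an FPM score, the count scaled to 1 fragment total per library by the authors, and gene counts summed to 5.56 to 5.84% above that total. Only counts and FPKM entered a comparison. Rows with a repeated symbol (849 of 27734) were left out. Genes with a mean of at least 1 FPKM over the 6 libraries were fitted with edgeR 4.0.16 (TMM normalization, quasi-likelihood test, group as the only term) in R 4.3.3, on the deposited counts. P-values were Benjamini-Hochberg adjusted over all 13070 genes, with a threshold of 0.05. The biological coefficient of variation was 7.17%. The fit was run on simulated counts with known changes. These had no library with a GC deviation, so they do not show how that deviation affects the calls.

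The members and the gene lists were chosen with earlier results of these data known. HIF1A, LGALS3, the 8 largest and 4 smallest changes, the genes nearest the edges, the members against the segment's direction and up to 4 genes of each list were named, and others of at least 5 FPKM could be. Some genes that the rule would name are not reported here. FRMD6 and ERO1A were named after their values were seen.

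Alternatives were DESeq2 1.42.0, limma 3.58.1 on log2 FPKM (pseudocount 0.5, 1 or 0.1), other scalings and filters, a LOESS correction for GC content (a GC value was found for 97.2% of tested genes), other windows, and each library left out. Motifs were searched in RefSeq promoters of GRCh38.p14, with no transfer of coordinates between builds.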

Additional observations from a re-analysis of the deposited data

How the results depend on the processing

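HIF1A kept its direction and call in all 16 alternative fits, with log2 fold changes from -0.55 to -0.39, as did LGALS3 with 0.48 to 0.57. The counts of higher members stayed within 1.5 times of 31, and the calls on the HIF and galectin lists within 1.5 times of theirs. Leaving out 1 library gave 26 to 35 higher and 5 to 9 lower members, 5 where a GDC-R library was left out, and a segment median of 0.39 to 0.54. Over all tested genes the share called was 64.8% without control library 1 and 37.6 to 39.1% without a GDC-R library, against 50.2%. It was 63.5% with the GC correction. Widening the window by 1 Mb on each side gave a median of 0.30. Genes higher in the left flank numbered 14 with the GC correction and 4 to 17 with a library left out, 17 without control library 1 and 4 without control library 2 or GDC-R library 3. In the right flank they numbered 4 at a mean of at least 5 FPKM, 13 with the GC correction and 5 to 13 with a library left out, 13 without control library 1 and 5 without GDC-R library 2 or 3.

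Over all 46 tested members and the alternative fits, 4 changed sign, each with a log2 fold change near 0. AP5M1 ranged from -0.19 to 0.04. EXOC5 gave 0.038, 0.0368 and 0.039 with limma at pseudocounts of 0.5, 1 and 0.1, 0.0189 with library totals, 0.0268 at a mean of at least 5 FPKM, 0.16 with the GC correction and -0.11 to 0.20 with a library left out. TOMM20L gave 0.0581, 0.049 and 0.0674 with the same pseudocounts, and -0.27 to 0.37 with a library left out. NAA30 gave -0.0183 to 0.36 with a library left out.

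No pairing by replicate number was seen: deviations of same-numbered libraries correlated at -0.013, 0.048 and -0.088. The control deviations followed GC content and could hide a weak pairing, so pairing is not excluded. With the replicate block, 31 members were higher and 7 lower, with a median of 0.45, while EXOC5 gave 0.0191 and TOMM20L 0.0152. Over all genes the block gave 3059 higher and 3222 lower. Some segment genes remain sensitive to control library 1, and 3 libraries a group limit the precision of small changes. The sensitive genes were not only those of low transcript GC. EXOC5 (35.1% GC), TOMM20L (50.8%) and HIF1A-AS2 (47.3%) moved in sign or by more than 1.5 times without that library, while KTN1 (35.8%) did not.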
